A study of Mus musculus with 2 samples.

Results

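The 9 genes described here, Per1, Per2, Cry1, Dbp, Nr1d1, Bhlhe40, Tsc22d3, Fkbp5 and Klf9, belong to the circadian clock or respond to glucocorticoids, and they were taken by symbol from the 32285 genes of the count tables. All 9 had at least 1 unique molecular identifier (UMI, the tag that marks a captured RNA molecule) in the kept cells, where 20099 genes were found. The study compared blood neutrophils of wild-type (WT) and APP/PS1 transgenic mice, a model of Alzheimer's disease, by 10x Genomics 3′ single-cell RNA-seq. Each genotype was 1 library from cells pooled from 3 mice, female and 7 months old by the methods, with no treatment named in the labels, and neutrophils were enriched from blood with a kit. The methods list purchased APP/PS1 and C57BL/6J mice and do not name another strain for the WT group. The promoter of the transgenes, the strain background of the APP/PS1 mice and the hour at which blood was drawn are not given in the sources used here. With 1 library for each genotype, the genotype, the pool of mice and the library cannot be told apart, and no test between genotypes was possible. Every interval below is an exact 95% interval and covers counting error only.

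The clock is a feedback loop in which CLOCK and BMAL1 bind E-box sequences and switch on the Period and Cryptochrome genes, whose proteins return to block them, while DBP, NR1D1 and BHLHE40 tie further genes to the same rhythm. Glucocorticoids are adrenal hormones whose level swings over the day, and their receptor switches on Tsc22d3, Fkbp5, Klf9 and also Per1 in many tissues. The number and the state of circulating neutrophils are known to follow the time of day.

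The WT library held 17123 cell barcodes and 92458623 UMIs, and the APP/PS1 library 17645 barcodes and 84870864 UMIs, with 83 barcode sequences present in both. After filtering, 14564 and 15208 cells were kept. Although both samples were labelled as neutrophils, the markers divided the kept cells into neutrophil-like (7585 WT and 9592 APP/PS1 cells), monocyte-like (5427 and 3725), NK cell-like (424 and 765), T cell-like (386 and 509), B cell-like (304 and 307) and erythroid-like (260 and 141) classes, which are named without the suffix below. The median depth was 2553 and 2704 UMIs a neutrophil and 6198 and 6167 UMIs a monocyte. Levels are given as CPM, the UMIs of a gene summed over the cells of a class in a library, divided by all UMIs of that class and library and scaled to 1000000. A log2 ratio compares the APP/PS1 with the WT library. A gene was called past the fold when its log2 ratio lay beyond 0.5 in either direction (1.41-fold) with at least 200 UMIs over both libraries.

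Per1 had the largest log2 ratio of those of the 9 genes that had enough UMIs, in both neutrophils and monocytes, and it was lower in the APP/PS1 library. In neutrophils, 7 of the 9 had at least 200 UMIs, 1 of them (Per1) was lower past the fold and 0 were higher, against 2.81% of 7122 genes lower and 3.88% higher. The median log2 ratio of the 7 was -0.25, against 0.05 over all 7122 genes. In monocytes, all 9 had enough UMIs, 2 (Per1 and Nr1d1) were lower past the fold and 0 were higher. This stood against 2.04% of 9175 genes lower and 1.38% higher. Per2 (204 UMIs over both libraries), Nr1d1 (205) and Dbp (218) lay just above the minimum in monocytes. The median of the 9 in monocytes was -0.19, against -0.02 over all genes. None of the 5 genes with enough UMIs in NK cells passed the fold, where 1.01% of genes were lower and 1.93% higher. The same held for the 3 in T cells, where 2.56% of genes were lower and 3.62% higher, and for the 2 in B cells, where 4.97% were lower and 1.67% higher. In erythroid cells, only Tsc22d3 had enough UMIs and it did not pass the fold, where 3.92% of 816 genes were lower and 18.8% higher.

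**Figure D1:**
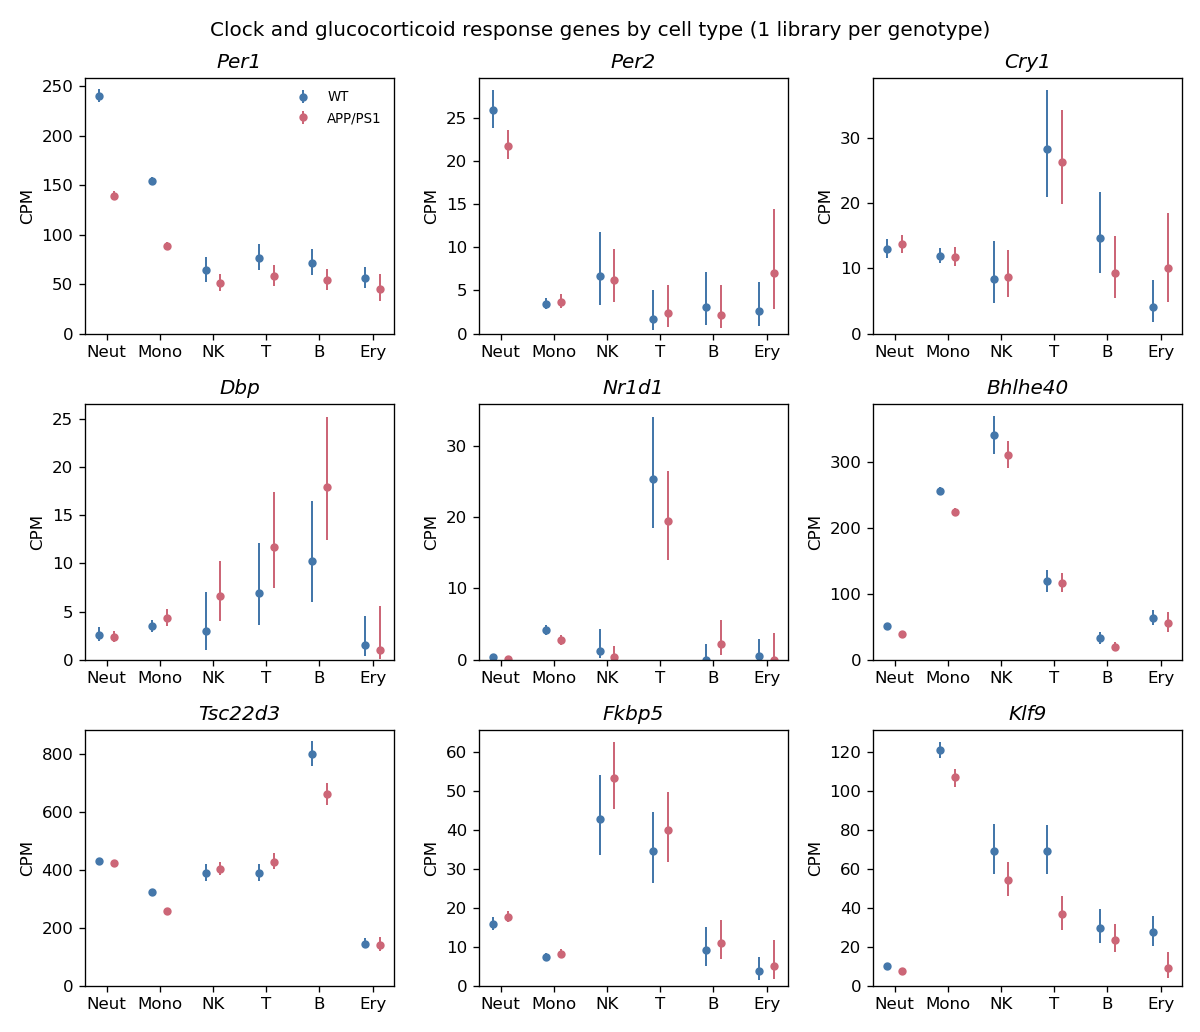
Level of each of the 9 genes in CPM (vertical axis, from 0, a different scale in each panel) in neutrophils (Neut), monocytes (Mono), NK, T, B and erythroid (Ery) cells of the WT (blue) and APP/PS1 (red) library. Points are single libraries and bars are 95% counting intervals. In neutrophils, Per1 was at 240.3 CPM in the WT and 139 CPM in the APP/PS1 library, whereas Tsc22d3 was at 429.7 and 426 CPM.

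Per1 lies on chromosome 11 (chr11:69095217-69109960, plus strand, mm10) and Cry1 on chromosome 10 (chr10:85131700-85185064, minus strand). Tsc22d3 lies on chromosome X (chrX:140539528-140600659, minus strand). Promoter sequence is shown for Per1, the gene that was past the fold in both neutrophils and monocytes. It is also shown for Cry1, a clock gene whose neutrophil and monocyte levels lay close in the 2 libraries, and for Tsc22d3, a direct glucocorticoid target. Windows of 300 bases, 250 before to 50 after a transcription start, were taken from RefSeq on GRCm38.p6, where 10 windows were matched for 7 of the 9 genes (all but Per2 and Bhlhe40). Capitals mark exact matches on either strand to an E-box (CACGTG), a D-box (TTATGTAA or TTATGCAA), a cAMP response element (TGACGTCA) or its TGACG core, a ROR element core (AGGTCA) and a glucocorticoid receptor element core (AGAACA). The TGACG core lies within the full cAMP response element.
Per1 first start (chr11:69098699-69098998, plus strand): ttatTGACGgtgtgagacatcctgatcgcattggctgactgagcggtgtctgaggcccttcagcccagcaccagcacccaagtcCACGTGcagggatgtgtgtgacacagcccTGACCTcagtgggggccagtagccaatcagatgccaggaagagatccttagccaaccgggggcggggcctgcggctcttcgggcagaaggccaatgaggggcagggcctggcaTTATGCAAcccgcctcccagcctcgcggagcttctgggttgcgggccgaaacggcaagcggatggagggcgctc
Per1 second start (chr11:69099902-69100201, plus strand): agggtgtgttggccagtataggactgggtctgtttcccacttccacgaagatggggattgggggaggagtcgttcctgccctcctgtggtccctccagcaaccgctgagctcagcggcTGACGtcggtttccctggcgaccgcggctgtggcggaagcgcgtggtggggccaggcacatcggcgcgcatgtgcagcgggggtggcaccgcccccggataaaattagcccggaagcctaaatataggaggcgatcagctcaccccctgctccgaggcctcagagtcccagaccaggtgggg
Cry1 start (chr10:85185005-85185304, minus strand): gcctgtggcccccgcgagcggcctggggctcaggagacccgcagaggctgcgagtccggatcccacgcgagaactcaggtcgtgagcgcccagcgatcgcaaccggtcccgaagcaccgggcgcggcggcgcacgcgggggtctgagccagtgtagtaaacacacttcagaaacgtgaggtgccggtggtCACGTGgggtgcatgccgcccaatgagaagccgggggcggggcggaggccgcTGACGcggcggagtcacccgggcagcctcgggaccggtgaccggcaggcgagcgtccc
Tsc22d3 first start (chrX:140600473-140600772, minus strand): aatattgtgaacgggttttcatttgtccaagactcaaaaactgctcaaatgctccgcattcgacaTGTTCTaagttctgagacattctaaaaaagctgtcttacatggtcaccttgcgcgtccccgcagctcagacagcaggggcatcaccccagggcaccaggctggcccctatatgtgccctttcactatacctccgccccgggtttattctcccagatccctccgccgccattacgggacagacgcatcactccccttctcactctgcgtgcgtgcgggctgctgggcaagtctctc

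The first Per1 window held 1 E-box, 1 D-box, 1 ROR element core and 1 TGACG core, and the second held 1 TGACG core. Among all 32851 windows of this length, an E-box was present in 7.15%, a D-box in 1.66%, a TGACG core in 20.8% and a ROR element core in 16.3%. The Cry1 window also held 1 E-box and 1 TGACG core, and the Fkbp5 window 1 E-box. A TGACG core was also found in the second Tsc22d3 window and in the Klf9 window, 1 in each. The first of the 3 Tsc22d3 windows held 1 glucocorticoid receptor element core, which 19% of all windows held. No full cAMP response element, present in 1.79% of windows, was found in the 10 windows. These matches describe letters in the windows and do not show that a factor binds there.

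Per1, Per2 and Cry1 encode repressors of the loop, and of these 3 Per1 alone passed the fold in neutrophils. In neutrophils, Per1 was at 240.3 CPM (234 to 247, 5235 UMIs) in the WT and 139 CPM (135 to 144, 4107 UMIs) in the APP/PS1 library. The 2 intervals were far apart. The log2 ratio was -0.79 (-0.85 to -0.73), and 60 of the 7122 genes (0.842%) had a lower one. In monocytes, Per1 was at 154 CPM in the WT and 88.5 CPM in the APP/PS1 library, a log2 ratio of -0.80 (-0.88 to -0.73), below which lay 44 of 9175 genes (0.48%). The WT library was therefore the higher one in both myeloid classes, by nearly the same factor.

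In the lymphoid and erythroid classes, the Per1 ratio also lay below 0, within the fold. The log2 ratio was -0.40 (-0.77 to -0.04) in T cells, from 76.7 to 57.9 CPM. It was -0.42 (-0.82 to -0.02) in B cells, from 71.7 to 53.6 CPM. The intervals in both reached close to 0. In NK cells, Per1 was at 63.8 and 51.2 CPM (log2 ratio -0.32, -0.69 to 0.06), and in erythroid cells at 55.7 and 44.9 CPM (-0.31, -0.85 to 0.20), with intervals that spanned 0. After each cell was thinned to 1000 UMIs, the ratio was -0.67 in NK cells (79 UMIs over both libraries), -0.68 in B cells (44) and -0.30 in T cells (60), beside -0.78 in neutrophils and in monocytes. The thinned values of the 3 lymphoid classes lay within the counting intervals of the unthinned ratios. The Per1 ratio without thinning lay below 0 in 6 of 6 classes, with an interval clear of 0 in 4, and the difference of the ratios between classes was not tested.

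The order of the classes by Per1 level was neutrophils, monocytes, T cells, B cells, NK cells and erythroid cells in both libraries. The intervals of neutrophils and monocytes did not overlap each other or those of the other 4 classes, whose neighbours in the order overlapped in both libraries. S100a9, a calgranulin gene that marks neutrophils, was also counted in each other class. It stood in T cells at 8% (WT) and 9.68% (APP/PS1) of its neutrophil CPM, in B cells at 7.05% and 4.11%, and in erythroid cells at 18.6% and 26.8%. Its part in the Per1 level of these classes was not tested.

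The difference was also seen cell by cell. A Per1 UMI was found in 46.5% (45.4 to 47.6) of WT and 32.3% (31.4 to 33.3) of APP/PS1 neutrophils, and in 29.6% and 24.8% of the deeper erythroid cells (median 7499.5 and 7543 UMIs), the class with the lowest Per1 CPM. Over both libraries, the erythroid class held 153 Per1 UMIs, and 49 with called doublets removed. When each cell was thinned to 1000 UMIs, the shares were 21.4% and 13.1% in neutrophils and 6.92% and 4.26% in erythroid cells. After thinning, exactly 1 Per1 UMI was left in 18.7% of the WT cells and 12.1% of the APP/PS1 cells. The share of cells with 2 was 2.39% and 0.991%, and with 3 or more it was 0.356% and 0.0521%. The APP/PS1 library was lower at each of these numbers.

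Per2, the paralogue of Per1 (chr1:91415982-91459324, minus strand), was at 25.9 CPM (23.8 to 28.2) in WT and 21.8 CPM (20.2 to 23.6) in APP/PS1 neutrophils, with 565 and 644 UMIs. Its log2 ratio of -0.25 (-0.41 to -0.08) was clear of 0 but within the fold, and 8.86% of genes had a lower one. Neutrophils had the highest Per2 level of the 6 classes in both libraries. In the other classes Per2 ranged from 1.73 to 6.99 CPM, with 3 to 18 UMIs a library outside monocytes. Each of the 5 ratios had an interval that spanned 0. In monocytes the Per2 ratio was 0.11, and 0.46 with called doublets removed, where 50 WT and 48 APP/PS1 UMIs were left.

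Cry1, which encodes a partner of the Period proteins, was at 12.9 CPM (282 UMIs) in WT and 13.7 CPM (404 UMIs) in APP/PS1 neutrophils. The log2 ratio of 0.08 had an interval from -0.14 to 0.31, well above that of Per1. In monocytes the values were 11.9 and 11.7 CPM (-0.02, -0.25 to 0.20). T cells had the highest Cry1 level in both libraries, at 28.2 CPM (20.9 to 37.3) and 26.3 CPM (19.8 to 34.3). In the WT library the T cell interval overlapped that of B cells (14.6 CPM, 9.34 to 21.7), and in the APP/PS1 library it did not.

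Dbp (chr7:45705088-45710203, plus strand) encodes an activator that binds D-boxes and, in many tissues, swings widely over the day. Its 3′ end overlaps Sphk2 on the opposite strand, which the strand of the UMIs keeps apart. Dbp was scarce in neutrophils, at 2.57 CPM (56 UMIs) and 2.34 CPM (69 UMIs), with a log2 ratio of -0.14 (-0.67 to 0.40). Its level was highest in B cells, at 10.3 CPM (6.01 to 16.5, 17 UMIs) in WT and 18 CPM (12.4 to 25.3, 33 UMIs) in APP/PS1. The B cell ratio was 0.81, with an interval from -0.08 to 1.74. In both libraries the B cell interval overlapped that of T cells (3.57 to 12.1 in WT and 7.49 to 17.4 in APP/PS1). In monocytes, Dbp was at 3.44 and 4.33 CPM (0.33, -0.07 to 0.73). The Dbp ratio lay above 0 in 4 of the 6 classes, and no interval was clear of 0.

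Nr1d1 (chr11:98767932-98775333, minus strand) encodes REV-ERBα, a nuclear receptor that silences Bmal1, and it was almost absent from neutrophils, with 8 UMIs in 7585 WT and 4 UMIs in 9592 APP/PS1 cells. Its highest level was in T cells, at 25.4 CPM (18.4 to 34.1) in WT and 19.5 CPM (13.9 to 26.5) in APP/PS1, from 44 and 40 UMIs. The T cell intervals lay above those of each other class in both libraries. In monocytes, Nr1d1 was at 4.13 CPM (144 UMIs) in WT and 2.69 CPM (61 UMIs) in APP/PS1, and its log2 ratio of -0.62 (-1.07 to -0.18) passed the fold. That ratio was 0.18 when each cell was thinned to 1000 UMIs, where 32 UMIs of the gene were left over both libraries. In B cells, 0 UMIs were found in WT, where a limit of 3 counts stands at 1.82 CPM, and 4 UMIs (2.19 CPM) in APP/PS1.

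Bhlhe40, also called Dec1 (chr6:108660629-108666925, plus strand), encodes a repressor that competes for E-boxes and that many immune cells use outside the clock. In neutrophils it was at 51.4 CPM (48.5 to 54.5) in WT and 38.9 CPM (36.7 to 41.3) in APP/PS1, a log2 ratio of -0.40 (-0.52 to -0.28) that 4.04% of genes fell below. In monocytes it was at 256 and 224 CPM (-0.20, -0.25 to -0.15). The WT library was the higher one in both, within the fold. NK cells had the highest level, at 341 CPM (313 to 369.8) in WT and 311 CPM (291 to 332) in APP/PS1 (-0.13, -0.29 to 0.02). T cells held 119 and 116 CPM (-0.04, -0.31 to 0.24), and B cells 32.2 and 19.7 CPM from 53 and 36 UMIs (-0.71, -1.36 to -0.07). The B cell value rested on fewer than 200 UMIs and was not called. In both libraries the order of levels was NK cells, monocytes, T cells, erythroid cells, neutrophils and B cells. The neighbours in this order had separate intervals, except erythroid cells and neutrophils in WT.

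Among the glucocorticoid targets, Tsc22d3, which encodes the anti-inflammatory protein GILZ, had nearly equal levels in the neutrophils of both libraries. It was at 429.7 CPM (421 to 438, 9359 UMIs) in WT and 426 CPM (419 to 434, 12566 UMIs) in APP/PS1. The log2 ratio was -0.01 (-0.05 to 0.03), an interval far from that of Per1. A Tsc22d3 UMI was found in 62.6% of neutrophils in each library, and in 33.6% and 32.1% after thinning.

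Outside neutrophils, Tsc22d3 was lower in APP/PS1 in monocytes and B cells, within the fold. In monocytes it was at 323 CPM in the WT and 259 CPM in the APP/PS1 library, a log2 ratio of -0.32 (-0.36 to -0.27). B cells had the highest level of all classes, 803 CPM (760.2 to 847) in WT and 662 CPM (625 to 700.0) in APP/PS1, a ratio of -0.28 (-0.39 to -0.17). The values of the 2 libraries lay closer in NK cells, at 389.9 and 405 CPM (0.05, -0.09 to 0.19). T cells held 389 and 429 CPM (0.14, -0.00 to 0.29), and erythroid cells 145 and 142 CPM (-0.04, -0.34 to 0.26).

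Fkbp5 (chr17:28399094-28517527, minus strand), whose product is a co-chaperone that holds back the glucocorticoid receptor, was the gene whose ratio lay above 0 in 6 of 6 classes, each with an interval that spanned 0. In neutrophils it was at 15.8 CPM (344 UMIs) in WT and 17.6 CPM (520 UMIs) in APP/PS1 (0.16, -0.04 to 0.36). In monocytes it was at 7.31 and 8.17 CPM (0.16, -0.12 to 0.44). NK cells had the highest level, 42.7 CPM (33.4 to 53.9) and 53.3 CPM (45.2 to 62.4), with a ratio of 0.32 (-0.10 to 0.74) that was 1.02 after thinning to 1000 UMIs (14 and 51 UMIs), followed by T cells at 34.6 and 39.9 CPM (0.21, -0.29 to 0.71). The intervals of NK and T cells overlapped in both libraries. Its ratio lay on the other side of 0 from that of Per1 in each class.

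Klf9 (chr19:23141226-23168134, plus strand), a zinc finger repressor that glucocorticoids induce, had a ratio below 0 in 6 of 6 classes, with an interval clear of 0 in 4. In neutrophils it was low, at 9.87 CPM (215 UMIs) in WT and 7.36 CPM (217 UMIs) in APP/PS1, a log2 ratio of -0.42 (-0.70 to -0.14) that 3.81% of genes fell below. The neutrophil ratio ran from -0.51 to -0.15 over 12 alternatives of the processing. It was -0.15 when each cell was thinned to 1000 UMIs, where 70 WT and 80 APP/PS1 UMIs of Klf9 were left. Monocytes had the highest level, at 121 CPM (117 to 125) and 107 CPM (102 to 111), with a ratio of -0.19 (-0.26 to -0.11). In NK cells Klf9 was at 69.2 and 54.3 CPM (-0.35, -0.71 to 0.01). The largest Klf9 differences were in classes with fewer than 200 UMIs, which were not called. In T cells it was at 69.2 CPM (120 UMIs) in WT and 36.5 CPM (75 UMIs) in APP/PS1 (-0.92, -1.36 to -0.49), and in erythroid cells at 27.3 CPM (53 UMIs) and 8.98 CPM (9 UMIs) (-1.61, -2.81 to -0.57). The median of all genes in erythroid cells was itself 0.21, and -0.00 with the TMM library size. With called doublets removed, 16 WT and 1 APP/PS1 UMIs of Klf9 were left in erythroid cells. The summed NK cell markers of the T cell class also differed, from 3588 CPM in WT to 5627 CPM in APP/PS1. All 5 of the 5 markers that had enough UMIs were higher past the fold. Ncr1, another NK cell marker with fewer than 200 UMIs, went the other way, from 24.2 CPM (42 UMIs) to 8.28 CPM (17 UMIs) (-1.55, -2.45 to -0.70). The part of these markers in the Klf9 value was not tested.

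**Figure D2:**
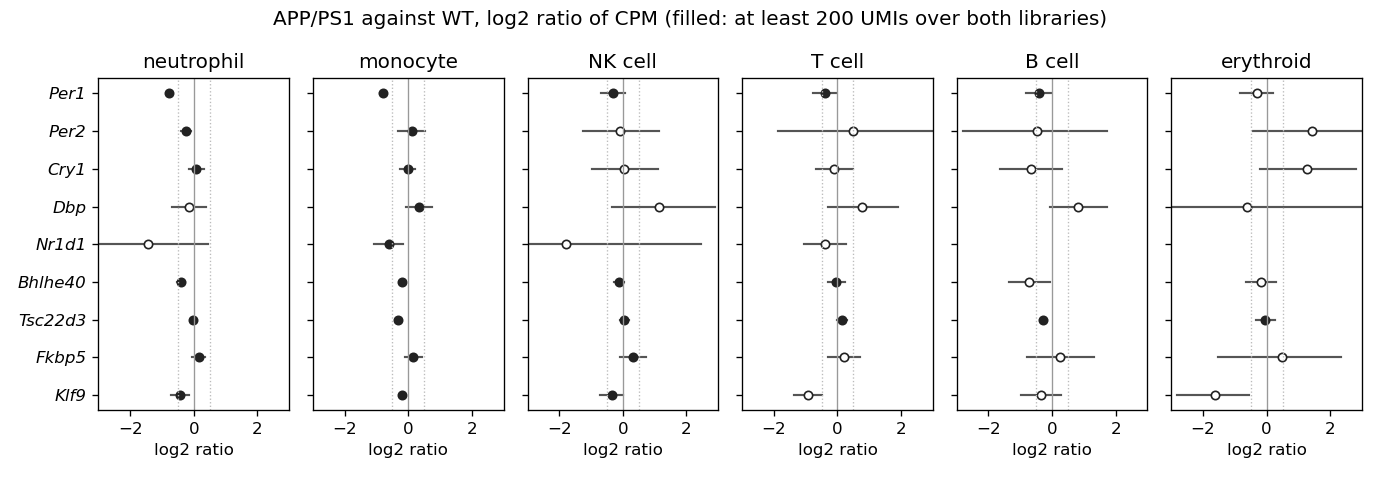
Log2 ratio of CPM, APP/PS1 against WT (horizontal axis), for each of the 9 genes (rows) in the 6 classes (panels). Bars are 95% counting intervals and intervals wider than the axis run off it, filled points have at least 200 UMIs over both libraries, dotted lines mark 0.5 in either direction, and genes with 0 UMIs in a library have no point. Per1 is the only filled point beyond the dotted lines in neutrophils (-0.79), and Per1 (-0.80) and Nr1d1 (-0.62) are the 2 in monocytes.

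Markers of other cells were compared between the libraries in the same neutrophils. Of 9 platelet markers, all with enough UMIs, 5 were higher past the fold in APP/PS1 and 0 lower, and their summed level was 839 CPM in the WT and 1042 CPM in the APP/PS1 library. Of 9 erythroid markers, 5 had enough UMIs, 4 of which were lower past the fold and 1 higher, with a sum of 1803 and 1101 CPM. The 12 T cell markers summed to 13.8 and 57 CPM, of which Cd3d alone went from 154 to 1419 UMIs, and Cd4 was at 0 in both. The 9 NK cell markers summed to 21.4 and 34.9 CPM and the 14 monocyte markers to 669.9 and 653 CPM. The 10 neutrophil markers summed to 183709 CPM in the WT and 155270.4 CPM in the APP/PS1 library, with 1 lower past the fold. Without the cluster that carried platelet genes the Per1 ratio in neutrophils was -0.77, and the part of the other markers was not tested. In B cells, the summed neutrophil markers were 13041 CPM in the WT and 6621 CPM in the APP/PS1 library and the erythroid markers 13072 and 3356 CPM, and their part in the B cell values was not tested.

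The neutrophils were next divided into 7 clusters, for which the 9 genes and the listed clock, glucocorticoid and immediate early genes were not used. Cluster 0 (5989 cells) was led by Stfa2, Cstdc5 and Stfa1, cluster 1 (4295) by Gm19951, Clec4n and Icam1, and cluster 2 (4139) by the platelet-related genes Cald1, Gp5 and Tpm2. Interferon-induced genes such as Ifit2, Ifit1bl1 and Ifit3 led cluster 3 (1548), Il2rg, Lcorl, Brwd1, Rgs1 and Cd69 led cluster 4 (663), and the granule genes Camp, Ltf and Ngp led cluster 5 (424). Cluster 6, led by haemoglobin genes, had 45 APP/PS1 cells and was left out. Cells of a cluster come from the same 2 libraries and are not replicates.

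Per1 was lower in the APP/PS1 library by more than 0.5 on the log2 scale in 6 of the 6 clusters, of which 5 had at least 200 UMIs. The ratio was -0.89 in cluster 0, from 225 to 121 CPM, and -0.66 in cluster 1, from 287 to 182 CPM. In cluster 2 it was -0.84 (242 to 135 CPM), in cluster 3 -0.88 (236 to 129 CPM), and in cluster 4 -0.66 (272 to 172 CPM). Each of these intervals was clear of 0. Cluster 5, the cells with granule gene transcripts of less mature neutrophils, had the lowest Per1 level in both libraries, 107 CPM (87.5 to 130.5) in WT and 51.8 CPM (40.8 to 64.8) in APP/PS1, with a ratio of -1.05. Its level was also below that of the other clusters for Tsc22d3, at 249 and 196 CPM, with a ratio of -0.34.

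How far the ratio varied between clusters differed among the other genes. Bhlhe40 was at 46.6 CPM in the WT and 26.2 CPM in the APP/PS1 library in cluster 0, a ratio of -0.83 that passed the fold, and at 60.1 and 59.8 CPM (-0.01) in cluster 4. Its ratio lay below 0 in 6 of 6 clusters, with an interval clear of 0 in 3. Klf9 had ratios of -0.61, -0.57 and -0.65 in clusters 0, 1 and 2, each on fewer than 200 UMIs. In cluster 4 it was at 8.05 and 12.2 CPM from 17 and 20 UMIs (0.60, -0.41 to 1.63), an interval that spanned 0. Per2 had a ratio clear of 0 in cluster 3 alone, from 34 to 20.2 CPM (-0.75) on fewer than 200 UMIs. Tsc22d3 lay between 413 and 486 CPM in clusters 0 to 4 in both libraries, with ratios from -0.06 to 0.02. The Fkbp5 ratio was clear of 0 in cluster 2 alone, from 14.1 to 19.1 CPM (0.44).

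**Figure D3:**
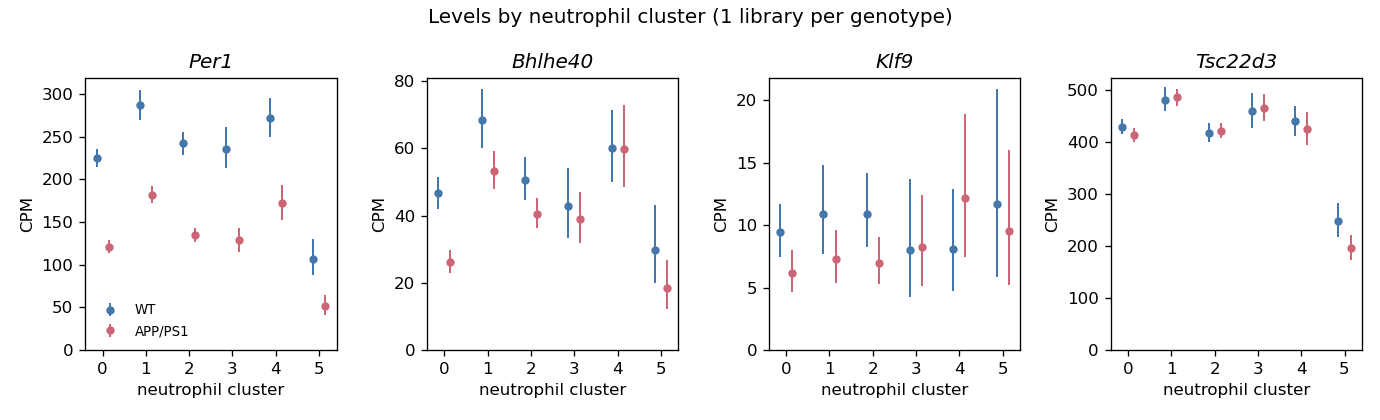
Level in CPM (vertical axis, from 0) of Per1, Bhlhe40, Klf9 and Tsc22d3 in neutrophil clusters 0 to 5 of the WT (blue) and APP/PS1 (red) library, with 95% counting intervals. The Per1 intervals of the 2 libraries are apart in each cluster, while those of Tsc22d3 overlap in clusters 0 to 5, in cluster 5 only at their edges.

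Monocytes fell into 2 clusters. One was led by Cd300e, Fabp4 and Eno3, and the other by Fn1, Plcb1 and Ifi211. Per1 was lower past the fold in both, from 159 to 93.8 CPM (-0.76, -0.87 to -0.65) in the first and from 151 to 84.7 CPM (-0.83, -0.93 to -0.73) in the second. Of all genes, 2.05% were lower past the fold and 1.38% higher in the first, and 2.27% and 1.39% in the second. Tsc22d3 differed more in the first, from 454 to 333 CPM (-0.45, -0.51 to -0.39), than in the second, from 227 to 206 CPM (-0.14, -0.21 to -0.07), with separate intervals. Klf9 went the same way, from 162 to 133 CPM (-0.29, -0.39 to -0.19) and from 90.8 to 87.4 CPM (-0.05, -0.16 to 0.05). Bhlhe40 had ratios of -0.15 (482 to 434 CPM) and -0.31 (89.1 to 71.7 CPM). With a finer clustering of all cells (resolution 0.5), a cluster of 1247 cells named as monocytes was led by Mal, Prss27 and Krt13. The part of such cells in the monocyte values was not tested.

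Other genes of the 2 pathways were read from lists that do not hold the 9 genes. Of 26 other clock symbols, 25 were found in the tables and 10 had enough UMIs in neutrophils, 1 was lower past the fold, 1 was higher and 8 were within it, with a median log2 ratio of 0.02, where 2.81% of all genes were lower and 3.88% higher. Nfil3, which encodes a repressor that competes with DBP for D-boxes, was the lower one, at 133 CPM in the WT and 65.4 CPM in the APP/PS1 library (-1.03, -1.11 to -0.94). Ciart, which encodes a repressor of CLOCK and BMAL1, was the higher one, at 4.09 and 7.09 CPM (0.80, 0.43 to 1.17). Next in order, Clock had a ratio of 0.25 (-0.07 to 0.57), Skp1a 0.20 and Btrc -0.25 (-0.66 to 0.16). Cry2, the paralogue of Cry1, was named after its value was seen, at 1.52 CPM (33 UMIs) in the WT and 2.71 CPM (80 UMIs) in the APP/PS1 library (0.84, 0.24 to 1.47), and was not called on fewer than 200 UMIs. In monocytes, 16 had enough UMIs, 1 was lower past the fold and 0 higher, where 2.04% of all genes were lower and 1.38% higher.

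A list of 40 other genes held glucocorticoid response genes and genes of the receptor system, and it shared Per3 with the clock list. Of the 40, 30 had enough UMIs in neutrophils, 5 were lower past the fold, 2 were higher and 23 were within it. Their median was -0.04, and the same 2.81% and 3.88% of all genes were lower and higher. The lowest were the metallothionein gene Mt1, at 8.95 and 3.19 CPM (-1.49), Cdkn1a, which encodes the cell cycle inhibitor p21, at 62 and 25.5 CPM (-1.28), and the transglutaminase gene Tgm2, at 174 and 75.4 CPM (-1.20). The highest were Zfp36, whose product speeds the decay of cytokine mRNAs, at 1709 and 2874 CPM (0.75), Btg2 at 2156 and 3071 CPM (0.51) and Cebpd at 619 and 798 CPM (0.37). The list thus held genes past the fold in both directions. The gene of the glucocorticoid receptor itself, Nr3c1, was named after its value was seen and stood in neutrophils at 204 CPM in the WT and 203 CPM in the APP/PS1 library (-0.01, -0.07 to 0.05).

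Of 28 immediate early and heat shock genes, which rise within minutes of cell handling or of cAMP and growth signals, 23 had enough UMIs in neutrophils. Of these, 4 were lower past the fold, 5 were higher and 14 were within it, with a median of 0.16, again against 2.81% of all genes lower and 3.88% higher. The lowest were Pde4b, which encodes a cAMP phosphodiesterase, at 492 and 265 CPM (-0.89), the kinase gene Sik1 at 172 and 96.9 CPM (-0.83) and Nr4a3 at 14.1 and 8.41 CPM (-0.74). The highest were the transcription factor genes Egr2, at 40.5 and 71.1 CPM (0.81), Jun at 172 and 299 CPM (0.80) and Egr1 at 1883 and 3013 CPM (0.68). Their part in the Per1 value was not tested.

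**Figure D4:**
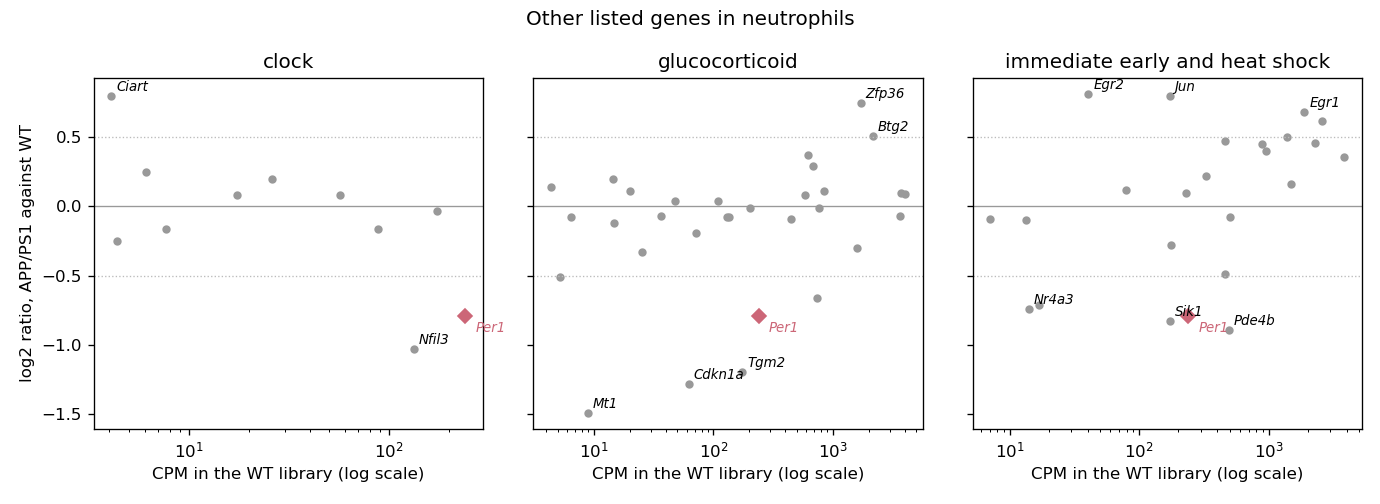
Log2 ratio in neutrophils, APP/PS1 against WT (vertical axis), against the CPM in the WT library (horizontal log axis) for the listed genes with at least 200 UMIs, 10 clock, 30 glucocorticoid and 23 immediate early and heat shock genes, with names for those of the 3 highest and 3 lowest of each list that lie beyond the dotted lines. Per1 (red diamond, -0.79) lies near Nfil3 (-1.03), Pde4b (-0.89) and Sik1 (-0.83), and most listed genes lie between the dotted lines at 0.5 in either direction.

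The genes with the most similar pattern were found by Pearson's r of log2 CPM over 12 points, the 6 classes in both libraries, among 10487 genes. The points share libraries, and r describes mostly the differences between cell types. For Per1 the closest were Xpr1 (0.939), Pde4b (0.939) and Samd8 (0.936). For Per2 they were Entpd1 (0.964), Gm29264 (0.960) and Ccdc146 (0.960), and for Cry1 Gm16201 (0.944), Gm11696 (0.902) and Nav2 (0.890). Dbp was nearest to Tut1 (0.957), Kif18a (0.952) and 4930523C07Rik (0.944), and Nr1d1 to Igfbp4 (0.922), Sntb1 (0.915) and Tnfsf10 (0.888). Bhlhe40 was nearest to Ifngr1 (0.968), Sulf2 (0.960) and Spred2 (0.953). For Tsc22d3 the closest were Dip2b (0.970), Brd8 (0.969) and Atg16l2 (0.964), for Fkbp5 Jak1 (0.987), Tes (0.982) and Gramd1b (0.974), and for Klf9 Mink1 (0.969) and Atmin (0.967). None of the 9 genes was among the closest of another.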

How the data were processed

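UMI counts per gene and cell were deposited by the authors, who made them with Cell Ranger 5.0.0 and the mm10 reference of 10x Genomics, without normalization. Cells were kept if their gene and UMI numbers lay between percentiles 5 and 95 of the same library and mitochondrial UMIs made up at most 10%, and genes if found in 3 cells. The 29772 kept cells were clustered with Seurat 5.3.0 in R 4.3.3 (2000 variable features less the listed genes, 15 principal components, resolution 0.2) and named by at least 3 markers, and neutrophils were clustered again with anchors between the libraries. Classes needed 50 cells in each library. Scrublet in scanpy 1.11.5 (expected rate 8%) called 0 APP/PS1 cells as doublets with its own threshold, 0.725, and the WT threshold, 0.210, called 9.37% and 7.76%. Doublets stayed in except in 1 alternative. Cells were not replicates, so with 1 library per genotype sums were compared with exact Poisson, Clopper-Pearson and conditional binomial intervals in scipy 1.17.1. UMIs within a library were treated as independent molecules. edgeR 4.0.16 gave TMM factors for an alternative. Ratios and intervals were tested on simulated data. Coordinates are GENCODE M21. The 9 genes, the lists and the rule for names (the 3 highest and 3 lowest of each list in neutrophils, 3 genes most alike, leading genes of clusters) were chosen with earlier results of these data known. A few genes that the rule names are not reported here.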

Additional observations from a re-analysis of the deposited data

How the results depend on the processing

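Over 12 alternatives, the Per1 log2 ratio in neutrophils stayed between -0.83 and -0.77, and over 9 in monocytes between -0.81 and -0.72. The -0.72 came from cells without percentile limits, and it moved beyond the counting interval. The number of the 9 genes lower past the fold in neutrophils was 2 in place of 1 after thinning to 1000 UMIs, where Bhlhe40 reached -0.53, with a minimum of 1 UMI in each library, where Nr1d1 counted at -1.44, and without cluster 4 (chosen after seeing the data), where Klf9 reached -0.51. In monocytes it was 1 in place of 2 in 5 settings, each time without Nr1d1 (-0.62 on 205 UMIs). Its ratio was -0.62 with a mitochondrial limit of 5% and -0.65 with called doublets removed, where its UMIs fell to 199 and 175, under the minimum. It was -0.48 with the mean over cells and -0.50 without percentile limits, within the fold, and thinning reversed it to 0.18 (32 UMIs). The cause of the other moves was not tested. Of all values recomputed, 291 counted as unchanged, 26 moved and 1 reversed. A ratio in a class counted as unchanged when it lay within its counting interval, on whichever side of the fold. It counted as reversed only when the ratio given above was past the fold and its sign changed. Some ratios within the fold also came to the other side of 0 or rounded to 0. These were Cry1 in neutrophils (1 alternative) and monocytes (3), Tsc22d3 in NK cells (2) and erythroid cells (3), and Bhlhe40 in T cells (2). Per1 was lower by more than 0.5 on the log2 scale in 5 of 5 neutrophil clusters without integration and in 7 of 7 at the next clustering. In erythroid cells, the TMM library size shifted the median gene by -0.21. Few UMIs limit Dbp, Nr1d1 and the small classes, and no alternative replaces replicate mice. No paired analysis was possible because each genotype was 1 library.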

Other observations

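Basophils, plasma cells, platelets and a cluster with no name held too few cells for levels. In basophils (72 WT and 43 APP/PS1 cells), which release histamine, 37 and 12 UMIs of Per1, 75 and 22 of Tsc22d3 and 25 and 5 of Bhlhe40 were counted. These stood among 370150 and 217473 UMIs of all genes, so the counts of the 2 libraries cannot be compared directly. Klf9 had 16 and 10 UMIs, Fkbp5 8 and 4, Cry1 3 and 2 and Nr1d1 1 and 0. Per2 had 3 and 4 and Dbp 1 and 5. In plasma cells (48 and 80), 12 and 9 UMIs of Per1, 35 and 28 of Tsc22d3 and 0 and 6 of Bhlhe40 were counted, among 146346 and 195679 UMIs. Among the 30 genes with at least 200 UMIs in neutrophils that lie within 1 megabase of Per1 on either side, 0 were lower past the fold and 1 was higher, the antisense gene Kdm6bos, which was named after its value was seen, and their median log2 ratio was 0.03. In monocytes, 0 of 40 such neighbours were lower and 1, again Kdm6bos, was higher.

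The other genes of the lists were also read outside neutrophils. In monocytes, Nfil3 went from 222 CPM in WT to 135 CPM (log2 ratio -0.72, -0.78 to -0.66) and Pde4b from 289.5 to 158 CPM (-0.87, -0.93 to -0.82). Jun went from 269 to 631 CPM (1.23, 1.19 to 1.27). Nfil3, Pde4b and Jun were picked here after their values were seen. Other genes named in neutrophils lay within the fold in monocytes, such as Ciart (0.47), Cdkn1a (-0.45) and Egr1 (0.15). The Egr1 ratio was 0.85 in the first monocyte cluster and -0.80 in the second. Of the glucocorticoid list, 3 of the 31 genes with enough UMIs in monocytes were lower past the fold and 1 was higher. Of all genes in monocytes, 2.04% were lower and 1.38% higher. The counts were 1 lower and 2 higher of 21 in NK cells, 2 and 4 of 21 in T cells, and 2 and 0 of 15 in B cells. Of all genes, 1.01% were lower and 1.93% higher in NK cells, 2.56% and 3.62% in T cells, and 4.97% and 1.67% in B cells. In erythroid cells, where the median of all genes was 0.21 and 3.92% of all genes were lower and 18.8% higher (9.93% and 7.48% with the TMM library size), 0 of 14 were lower and 7 higher. Of the immediate early and heat shock genes, 4 of 27 were lower and 6 higher in monocytes, and 2 and 4 of 18 in NK cells. The counts were 4 and 2 of 18 in T cells, 2 and 2 of 17 in B cells, and 1 and 9 of 16 in erythroid cells. The same shares of all genes apply in each class. Of the other clock genes, 0 of 6 passed the fold in NK cells, 0 of 3 in T cells and 0 of 1 in B cells, and in erythroid cells 0 had enough UMIs.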
